A study of Mus musculus with 12 samples.

Results

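The 7 genes described here lie in 2 runs on mouse chromosome 13 and were chosen by their difference in RNA level between FlipFlop and B6 T cells within each lineage, over all 12 libraries. They were taken by symbol from a table of 12809 genes. The first run holds *Rsl1*, *Zfp456* and *Zfp429* within 0.227 Mb. The second run begins 26.4 Mb further along and holds *Arsb*, *F2rl1*, *F2rl2* and *Gm20075* within 2.31 Mb. A run is a row of these genes with gaps of less than 10 Mb. All 7 genes were above the filter on low values, which kept 11595 genes with at least 1 CPM (reads scaled to a common library size and for library composition) in at least 3 libraries. *F2rl2* passed through its B6 libraries and *Gm20075* mostly through its FlipFlop libraries, so each had to be high somewhere to be kept. Because the differences between the strains chose the genes, they are described below with no p-value, and counts of members past a limit are printed beside the share of all genes for description. Whether the difference between CD4 and CD8 T cells differs between the strains was not part of the choice and was tested. The differences between CD4 and CD8 T cells within 1 strain were tested too. They share libraries with the strain differences, so their p-values are not independent of the choice.

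The first run belongs to a large cluster of genes for KRAB zinc finger proteins. Such proteins bind DNA through arrays of zinc fingers and recruit the corepressor TRIM28 through their KRAB domain, and many of them silence retroelements or neighboring genes. *Rsl1* is named regulator of sex-limitation 1, after its known role in liver, where its protein represses genes that are expressed in male animals, and *Zfp429* is also called *Rsl2*. In the second run, *Arsb* encodes arylsulfatase B, a lysosomal enzyme that removes sulfate groups from dermatan sulfate and chondroitin sulfate. *F2rl1* and *F2rl2* encode the protease-activated receptors PAR2 and PAR3, which are cut and thereby switched on or engaged by serine proteases. *F2r*, which encodes the thrombin receptor PAR1, lies between them. *Gm20075* is annotated as a retrogene, a gene copied from a spliced transcript of another gene.

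RNA was measured in T cells sorted from lymph nodes of female mice. Each strain gave 2 of the 4 groups, its CD4 T cells and its CD8 T cells, with 3 libraries per group. B6 mice (C57BL/6) were unaltered and 10 weeks old. FlipFlop mice were 14 weeks old in the labels and homozygous for 2 altered coreceptor genes on 1 chromosome 6, a *Cd8a* locus that encodes CD4, made in 129R1 embryonic stem cells, and a *Cd4* locus that encodes CD8αβ.1, made in B6 embryonic stem cells. Each altered gene kept the regulatory elements of its locus, so FlipFlop CD4 T cells are those in which the *Cd8a* locus is active, and they were set against B6 CD8 T cells as the cytotoxic lineage, while FlipFlop CD8 T cells were set against B6 CD4 T cells as the helper lineage. Strain, age and every allele that came with the altered loci change together here and cannot be told apart. The labels do not say whether replicates are separate animals, so p-values measure the spread between these libraries, which may be technical.

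The libraries held 26600000 to 33100000 reads on the listed genes. A count of 0 allows for up to 3 reads, or 0.0857 to 0.120 CPM, which covers counting error only. The groups carried their lineage's genes. *Zbtb7b*, the helper lineage factor, measured 162 to 203 CPM in B6 CD4 and FlipFlop CD8 and 1.16 to 2.79 CPM in the other libraries, and *Runx3*, the cytotoxic lineage factor, 104 to 145 CPM in B6 CD8 and FlipFlop CD4 and 52.6 to 68.4 CPM in the others. *Cd40lg*, the gene for a helper ligand, had 51.3 to 77.9 against 0.520 to 3.59 CPM, *Gata3* 45.9 to 62.7 against 21.8 to 29.9 CPM, *Prf1*, the perforin gene, 149 to 229 against 39.1 to 66.3 CPM, and *Eomes* 42.2 to 91.8 against 6.50 to 21.1 CPM in cells of the lineage and of the other. The summed level of 8 T cell markers was 5229 to 7473 CPM, and 0 of 8 platelet markers are listed. Replicate 2 was the highest library of both FlipFlop groups, and still below the B6 libraries, at 4 of the 7 genes, with a wide gap only at *Zfp429*. Of all tested genes, 1.49% had replicate 2 between the B6 and the other FlipFlop libraries, in either direction. Values without it are given beside the results.

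**Figure D1:**
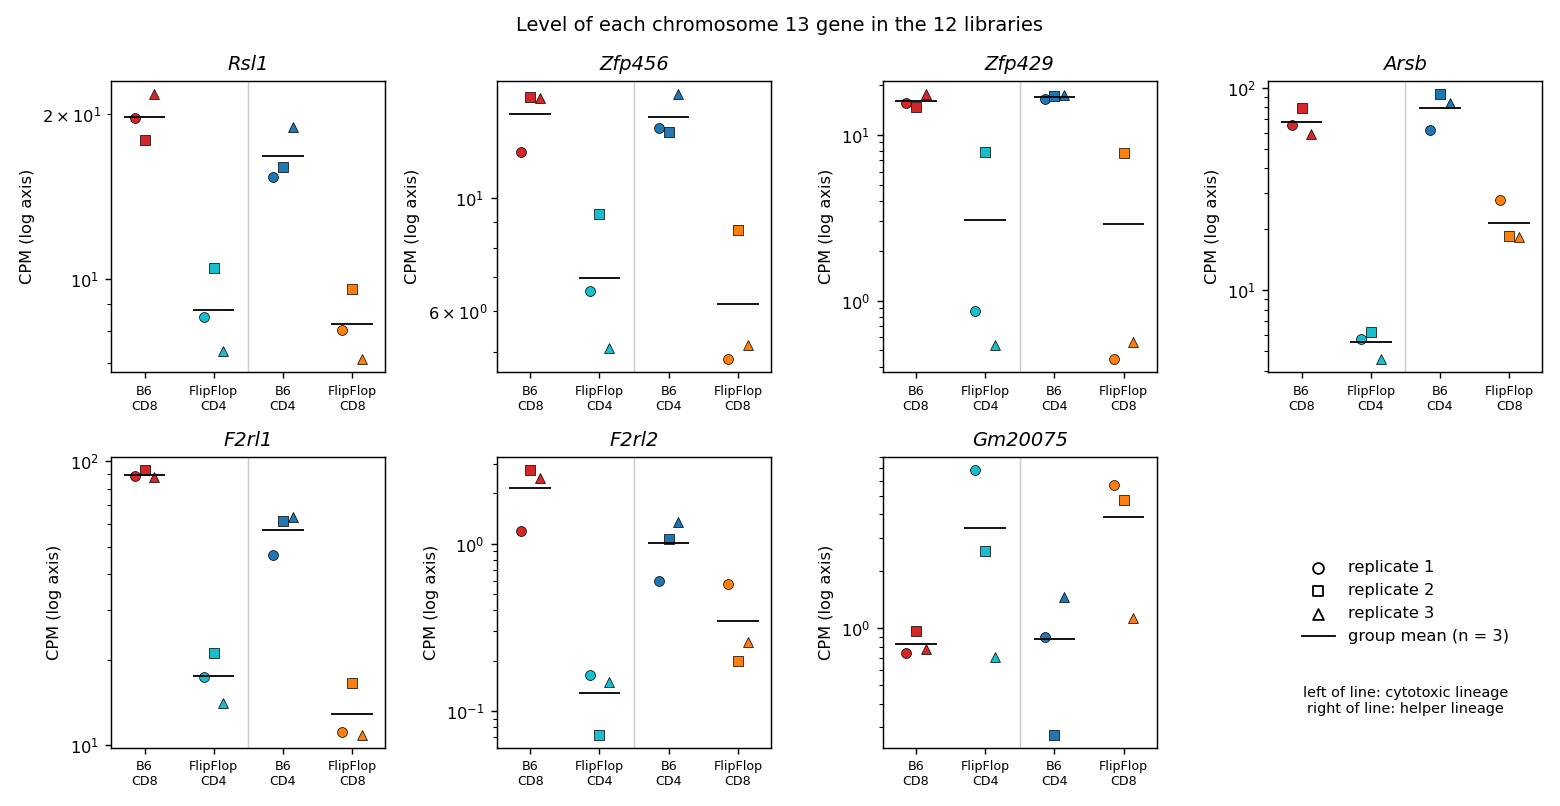
CPM of each gene (vertical axes, log scale) in the 12 libraries, grouped along the horizontal axis by lineage, with circles, squares and triangles for replicates 1, 2 and 3 and a line for each group mean (n = 3). FlipFlop libraries lie below all B6 libraries of their lineage for 6 genes, the squares stand out for *Zfp429* at 7.84 and 7.73 CPM, and *Gm20075* overlaps.

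At the zinc finger genes the RNA of FlipFlop T cells was lower than that of B6 T cells in both lineages. *Rsl1* (ENSMUSG00000058900.5, chr13:67173182-67184044, plus strand, GRCm38) is the first gene of the run. It had 15.3, 16.0 and 19.0 CPM in B6 CD4 libraries, 19.7, 17.9 and 21.8 CPM in B6 CD8 libraries, 8.51, 10.4 and 7.35 CPM in FlipFlop CD4 and 8.05, 9.56 and 7.13 CPM in FlipFlop CD8 for replicates 1, 2 and 3. The highest FlipFlop library was thus below the lowest B6 library, and the strains did not overlap. All differences are given as log2(CPM + 0.5), where the change of a low gene comes out too small. That of *Rsl1* was -1.14 (standard error 0.14) between FlipFlop CD4 and B6 CD8 and -0.98 (standard error 0.14) between FlipFlop CD8 and B6 CD4. The mean CPM was lower by a factor of 2.26 in the cytotoxic and 2.03 in the helper lineage.

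*Zfp456* (ENSMUSG00000078995.10, chr13:67362113-67375810, minus strand), a KRAB zinc finger gene, had 13.8, 13.5 and 16.0 CPM in B6 CD4 libraries, 12.3, 15.8 and 15.7 CPM in B6 CD8 libraries, 6.58, 9.31 and 5.07 CPM in FlipFlop CD4 and 4.84, 8.65 and 5.15 CPM in FlipFlop CD8. Its strain difference was -1.04 (standard error 0.22) in the cytotoxic and -1.19 (standard error 0.22) in the helper lineage. In both FlipFlop groups replicate 2 was the highest library, and it still lay below every B6 library.

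*Zfp429* (ENSMUSG00000078994.9, chr13:67387905-67399819, minus strand) had the widest gap between FlipFlop replicate 2 and the others. It was even in B6 T cells, with B6 CD4 libraries at 16.5, 17.1 and 17.4 CPM and B6 CD8 libraries at 15.6, 14.7 and 17.5 CPM. In FlipFlop CD4 it had 0.867, 7.84 and 0.536 CPM and in FlipFlop CD8 0.445, 7.73 and 0.560 CPM. FlipFlop replicates 1 and 3 were at 2.62% to 5.44% of the B6 mean of their lineage, whereas replicate 2 was at 49.2% in CD4 and 45.5% in CD8. With all libraries the strain difference was -2.85 in the cytotoxic and -3.11 in the helper lineage, each with a standard error of 0.81, the widest of the 7 genes. Without replicate 2 of both FlipFlop groups, an alternative chosen after the values were seen, it was -3.78 and -4.13.

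For *Rsl1* and *Zfp456* the same libraries stood highest by less. *Rsl1* was at 52.8% and 57.0% of the B6 mean in replicate 2 of FlipFlop CD4 and CD8, against 37.2% to 48.0% in the others, and *Zfp456* at 63.7% and 60.0% against 33.5% to 45.0%. Without replicate 2 the strain differences were -1.27 and -1.09 for *Rsl1* and -1.26 and -1.44 for *Zfp456* in the cytotoxic and helper lineage. *F2rl1* of the second run had this order as well, at 23.5% and 28.8% in replicate 2 against 15.7% to 19.5%, while *Arsb*, *F2rl2* and *Gm20075* did not have it in both groups. A FlipFlop replicate 2 that lay between the B6 libraries and the other FlipFlop libraries in both lineages was found for 173 of 11595 genes (1.49%), and for 17 of 434 on chromosome 13 (3.92%), of which 4 are the members that prompted the count. On chromosome 9 it was found for 18 of 631 (2.85%). Of the 17, 2 that were picked after their values were seen lie outside both runs, about 3 Mb before *Rsl1*. *Aaed1* measured 16.8, 27.4 and 16.2 CPM in FlipFlop CD8 and 34.0, 31.0 and 34.3 CPM in B6 CD4, and *1810034E14Rik*, annotated as antisense, 0.932, 4.10 and 1.09 CPM against 10.8, 8.49 and 7.84 CPM.

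**Figure D2:**
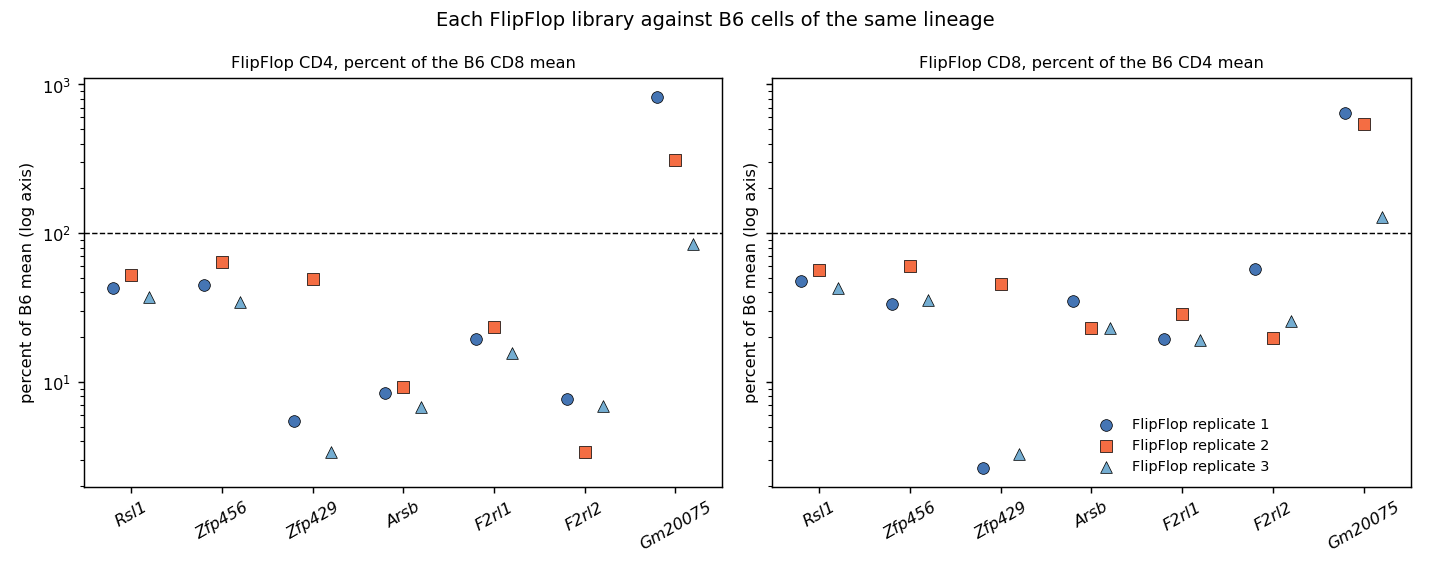
Level of each FlipFlop library as percent of the B6 mean of its lineage (vertical axis, log scale; the dashed line is 100%), for the 7 genes along the horizontal axis, with circles, squares and triangles for replicates 1, 2 and 3. *Zfp429* is split, with replicate 2 at 49.2% and 45.5% and the others at 2.62% to 5.44%, and replicate 2 is also the highest library at *Rsl1*, *Zfp456* and *F2rl1* in both panels.

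The 3 zinc finger genes also share a promoter sequence that the choice of genes did not use. In RefSeq's promoters (GRCm38.p6), 5 of the 7 genes have an entry, and the 250 bases before the start sites of *Rsl1*, *Zfp456* and *Zfp429* were aligned in pairs. *Rsl1* was 89.3% identical to *Zfp456* and 87.9% to *Zfp429*, and *Zfp456* was 86.0% identical to *Zfp429*, counted over all columns of the alignment with gaps. The sequences are shown because they are alike among the 3 members and not in the other zinc finger genes, named Zfp, that lie between them. *Gm28041*, which overlaps *Zfp456* on the same strand, was not compared. Capitals mark the longest stretch that is the same in all 3, of 33 bases, and bases inside an annotated exon are left off the 3′ end of *Zfp456* and *Zfp429*.
Rsl1 (chr13:67172932-67173181, plus strand): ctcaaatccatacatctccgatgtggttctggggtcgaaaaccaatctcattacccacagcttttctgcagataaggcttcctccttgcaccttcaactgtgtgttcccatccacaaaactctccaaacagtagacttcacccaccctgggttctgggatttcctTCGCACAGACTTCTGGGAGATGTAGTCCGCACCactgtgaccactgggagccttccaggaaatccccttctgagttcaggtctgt
Zfp456 (chr13:67375811-67376013, minus strand): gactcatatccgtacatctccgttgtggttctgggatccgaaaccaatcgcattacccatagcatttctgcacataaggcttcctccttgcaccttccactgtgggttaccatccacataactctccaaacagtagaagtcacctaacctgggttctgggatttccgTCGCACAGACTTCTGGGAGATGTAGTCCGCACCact
Zfp429 (chr13:67399820-67400017, minus strand): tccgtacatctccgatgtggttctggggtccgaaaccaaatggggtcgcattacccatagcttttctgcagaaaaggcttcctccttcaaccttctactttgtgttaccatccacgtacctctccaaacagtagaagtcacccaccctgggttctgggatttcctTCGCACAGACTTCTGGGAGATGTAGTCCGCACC

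The stretch begins 85 bases before the start site of *Rsl1* and *Zfp429* and 83 bases before that of *Zfp456*. Searched on both strands, it was in 3 of 32851 promoters (0.00913%), these 3 alone. Since it was found from these sequences, this count only describes how rare it is. Of 20 promoters of other zinc finger genes in the run and 1 Mb to each side, 0 held it, and none was more than 55.3% identical to its closest member over 250 bases. All 4 tested genes that lie inside the run without being members, *Zfp455*, *Zfp458*, *Zfp595* and *Zfp953*, are KRAB zinc finger neighbors with a related window. The windows closest to the stretch are shown for them, with capitals where a base equals that of the stretch.
Zfp455 (chr13:67194436-67194468, plus strand): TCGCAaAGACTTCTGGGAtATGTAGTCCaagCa
Zfp458 (chr13:67269154-67269186, minus strand): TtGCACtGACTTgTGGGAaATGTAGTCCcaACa
Zfp595 (chr13:67332593-67332625, minus strand): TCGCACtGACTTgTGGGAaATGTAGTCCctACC
Zfp953 (chr13:67360629-67360661, minus strand): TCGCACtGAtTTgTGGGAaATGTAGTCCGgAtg
They differed from the stretch at 6, 7, 5 and 7 bases. *Zfp874a*, just past the run, came closest with 4. A match is a description of these letters and not a binding site.

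Between the strains, these 4 inner neighbors lay closer to 0 than the members. *Zfp953*, which lies between *Rsl1* and *Zfp456*, had 9.70, 13.5 and 17.9 CPM in B6 CD4 libraries, 12.4, 15.5 and 16.7 CPM in B6 CD8 libraries, 14.6, 13.7 and 12.4 CPM in FlipFlop CD4 and 14.8, 15.5 and 12.3 CPM in FlipFlop CD8, and its groups overlapped. Over the 4 genes the strain difference ranged from -0.55 to 0.07 in the cytotoxic and from -0.11 to 0.27 in the helper lineage, and 0 of 4 had a limma adjusted p under 0.05 in either lineage, while 1 and 0 had an unadjusted p under 0.05. In the flanks of 1 Mb, 21 genes were tested, of which 3 were called in the cytotoxic and 4 in the helper lineage. Over all tested genes the share called was 7.92% and 27.6%. The share of all genes with an unadjusted p under 0.05 was not counted, so nothing is read from counts at that limit, here or below. *Zfp874a* was lower in FlipFlop T cells, with 17.0, 19.0 and 23.9 CPM in B6 CD4 and 10.6, 17.0 and 10.2 CPM in FlipFlop CD8, and its strain difference was -1.03 (standard error 0.22) in the cytotoxic and -0.67 (standard error 0.22) in the helper lineage. *Gm9625*, a processed pseudogene 0.637 Mb from *Rsl1*, was higher, with 3.67 to 6.04 CPM in the B6 libraries, 309, 483 and 248 CPM in FlipFlop CD4 and 205, 358 and 177 CPM in FlipFlop CD8. Of its windows of 1 read length, 12.4% are also found in transcripts of other genes, *Rplp0* first, and *Rplp0*, a ribosomal protein gene, had strain differences of -0.93 and -1.27. The nearest tested genes outside the run were *Zfp759* and *Gm28557* before it, with strain differences of 0.34 and 0.13 in the cytotoxic and 0.51 and -0.07 in the helper lineage, and *Zfp459* and *Zfp874a* after it, where *Zfp459* had -0.58 and -0.23.

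The second run opens with *Arsb* (ENSMUSG00000042082.7, chr13:93771630-93943016, plus strand), the arylsulfatase B gene. B6 CD4 libraries had 61.7, 92.7 and 84.2 CPM and B6 CD8 libraries 65.3, 78.9 and 58.8 CPM. FlipFlop CD4 libraries had 5.71, 6.23 and 4.57 CPM and FlipFlop CD8 libraries 28.0, 18.4 and 18.3 CPM. The B6 groups overlapped with each other, every FlipFlop library was below every B6 library, and the FlipFlop CD4 libraries were below the FlipFlop CD8 libraries. The strain difference was -3.50 (standard error 0.19) in the cytotoxic and -1.87 (standard error 0.19) in the helper lineage, and the mean CPM was lower by a factor of 12.3 and 3.69. *Gm47210*, a noncoding RNA annotated on the other strand and overlapping the start of *Arsb*, was under the filter. B6 CD4 libraries had it at 0.751, 0.678 and 0.613 CPM and B6 CD8 libraries at 0.412, 0.440 and 0.331 CPM. It was listed at 0.0657, 0.0362 and 0.149 CPM in FlipFlop CD4 and 0.161, 0.198 and 0.171 CPM in FlipFlop CD8. Reads of *Arsb* and *Gm47210* cannot be told apart where the genes overlap, as the libraries are not stated to keep strand.

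*F2rl1* (ENSMUSG00000021678.9, chr13:95511732-95525227, minus strand), the PAR2 gene, was at 46.8, 61.7 and 63.7 CPM in the B6 CD4 libraries and at 88.3, 93.1 and 87.8 CPM in the B6 CD8 libraries. It had 17.5, 21.1 and 14.1 CPM in FlipFlop CD4 and 11.1, 16.5 and 10.9 CPM in FlipFlop CD8. B6 CD8 was the highest group and did not overlap with B6 CD4, both were above all FlipFlop libraries, and the FlipFlop groups overlapped. The strain difference was -2.34 (standard error 0.17) in the cytotoxic and -2.13 (standard error 0.17) in the helper lineage, a mean CPM lower by a factor of 5.12 and 4.46. Without FlipFlop replicate 2 these differences were -2.48 and -2.32.

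*F2rl2* (ENSMUSG00000021675.4, chr13:95696853-95702739, plus strand), the PAR3 gene, lies within *Iqgap2* on the other strand and had few reads. It was at 0.601, 1.07 and 1.35 CPM in B6 CD4 libraries, 1.20, 2.76 and 2.48 CPM in B6 CD8 libraries, 0.164, 0.0725 and 0.149 CPM in FlipFlop CD4 and 0.579, 0.198 and 0.257 CPM in FlipFlop CD8. The FlipFlop CD4 values rest on 5, 2 and 4 reads, close to the limit for a count of 0, and those of FlipFlop CD8 on 18, 6 and 9 reads. The strains did not overlap in either lineage, but in the helper lineage the gap was narrow. B6 CD4 replicate 1 had 0.601 CPM from 16 reads and FlipFlop CD8 replicate 1 had 0.579 CPM from 18 reads. These libraries held 27900000 and 29300000 reads on the listed genes, so that order rests on the scaling. The strain difference of -2.02 (standard error 0.27) in the cytotoxic and -0.83 (standard error 0.27) in the helper lineage depended on the pseudocount, and with 0.1 in place of 0.5 it was -3.24 and -1.34. *Iqgap2* itself, a scaffold protein gene with 47.0 to 95.0 CPM, had strain differences of -0.62 and -0.45.

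*Gm20075* (ENSMUSG00000114133.1, chr13:96079216-96081376, minus strand) was the 1 member with more RNA in FlipFlop T cells on average. It had 0.899, 0.275 and 1.46 CPM in B6 CD4 libraries, 0.741, 0.966 and 0.781 CPM in B6 CD8 libraries, 6.83, 2.57 and 0.706 CPM in FlipFlop CD4 and 5.67, 4.74 and 1.13 CPM in FlipFlop CD8. Replicate 3 of FlipFlop CD4 was below all B6 CD8 libraries and replicate 3 of FlipFlop CD8 was within the B6 CD4 range, so the strains overlapped in both lineages, and the strain difference was 1.18 and 1.55 with a standard error of 0.61. The cytotoxic value was 0.54 without FlipFlop CD4 replicate 1 and 1.84 without FlipFlop CD4 replicate 3. Of its windows of 1 read length, 70.8% are also found in *Btf3l4* on chromosome 4, so its level is uncertain. *Btf3l4* had 34.1 to 46.1 CPM in all libraries and strain differences of -0.06 and -0.26.

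Among the 9 other tested genes inside the second run, strain differences ranged from -0.62 to 0.34 in the cytotoxic and from -0.45 to 1.19 in the helper lineage. Of these, 1 and 4 genes were called, beside 7.92% and 27.6% of all tested genes. *F2r*, the PAR1 gene between *F2rl1* and *F2rl2*, had 21.4, 28.8 and 31.9 CPM in B6 CD4 libraries, 77.3, 89.2 and 90.8 CPM in B6 CD8 libraries, 120, 104 and 101 CPM in FlipFlop CD4 and 76.1, 66.0 and 47.8 CPM in FlipFlop CD8. Its strain difference was 0.34 (standard error 0.17) in the cytotoxic lineage, not called, and 1.19 (standard error 0.17) in the helper lineage, called, where *F2rl1* on one side and *F2rl2* on the other were lower. *Scamp1*, a gene for a carrier membrane protein, was at 0.43 Mb from *Arsb* and differed by -0.10 and 1.14. The nearest tested genes outside this run were *Jmy* and *Homer1* before it, with strain differences of 0.07 and 0.18 in the cytotoxic and 0.34 and 0.42 in the helper lineage, and *Poc5* and *Polk* after it, with 0.13 and 0.10 and with 0.13 and 0.33. Of the 8 tested genes in the flanks, 0 and 2 were called by limma, beside the same 7.92% and 27.6%, and 1 and 3 had an unadjusted p under 0.05.

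**Figure D3:**
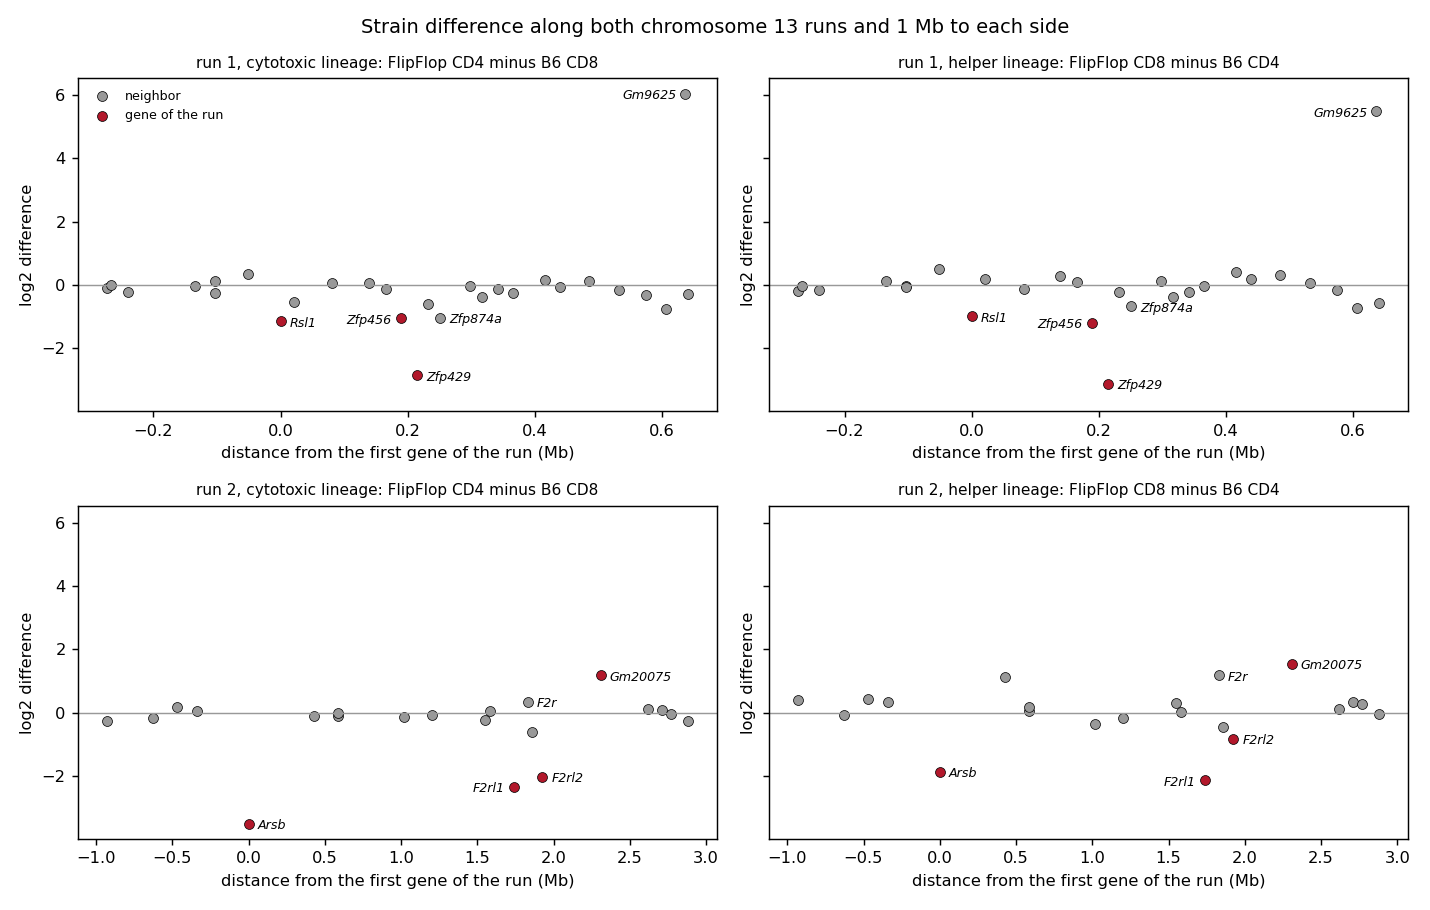
Strain difference (log2, vertical axes) of each tested gene of both runs and 1 Mb to each side, against the distance of its start from that of the first gene of the run (Mb), with the cytotoxic lineage at the left and the helper lineage at the right. The members (red) are scattered among neighbors (gray), most of them near 0 and *Gm9625* at 6.05 and 5.49, and *F2r* is at 0.34 and 1.19 between *F2rl1* at -2.34 and -2.13 and *F2rl2* at -2.02 and -0.83.

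Counted over the members, the FlipFlop libraries were below all B6 libraries of the same lineage for 6 of 7 genes in the cytotoxic and 6 of 7 in the helper lineage. Over all tested genes this held for 15.7% and 23.4%, and the opposite order, which no member had, for 16.7% and 20.2%. For *F2rl2* in the helper lineage the gap was narrow, with 0.601 CPM in B6 CD4 replicate 1 and 0.579 CPM in FlipFlop CD8 replicate 1. A limma adjusted p under 0.05 was reached by 5 members in the cytotoxic and 6 in the helper lineage, all lower in FlipFlop, beside 7.92% and 27.6% of all tested genes. Calls lower in FlipFlop made up 3.75% and 14.4% of tested genes and calls higher in FlipFlop 4.17% and 13.2%. These contrasts chose the members, and nothing is read from the counts. *Gm20075* was called in neither with all libraries, but in the helper lineage without FlipFlop CD4 replicate 1, FlipFlop CD4 replicate 3 or FlipFlop CD8 replicate 3. *Zfp429* was called in the helper lineage and, without FlipFlop replicate 2, in both, but not in the helper lineage without FlipFlop CD8 replicate 1 or replicate 3. In the cytotoxic lineage it was also called with the replicate block, pseudocount 1 or a fit of 6 libraries, among others. *Zfp456* was not called in the cytotoxic lineage without B6 CD8 replicate 2, B6 CD8 replicate 3 or FlipFlop CD4 replicate 3. *F2rl2* was not called in the helper lineage with pseudocount 1, without the TMM factor or without FlipFlop replicate 2, among others. With an unadjusted p-value under 0.0001 and more than 5-fold as limits, 2 members passed in the cytotoxic lineage (*Arsb* and *F2rl1*) and 0 in the helper lineage, beside 0.474% and 0.405% of tested genes.

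Summed levels of markers of other cells moved between the strains too, in places mostly through a single gene of the list. The summed level of red blood cell markers was 15.9 to 28.8 CPM in B6 and 6.67 to 14.2 CPM in FlipFlop libraries, with *Alas2* not listed. In the helper lineage, regulatory T cell markers summed to 342 to 408 CPM in B6 CD4 and 809 to 966 CPM in FlipFlop CD8, memory or effector markers to 516 to 629 and 1007 to 1307 CPM, and naive markers to 5001 to 5259 and 3498 to 3630 CPM. In the cytotoxic lineage B6 CD8 libraries had 59.5 to 66.8 CPM of regulatory T cell markers and FlipFlop CD4 libraries 63.4 to 67.1 CPM, and in the same order the ranges were 719 to 774 and 507 to 522 CPM for memory or effector markers and 4707 to 4794 and 4316 to 4789 CPM for naive markers. Most of the memory or effector sum was *Il2rb*, with 547 to 585 CPM in B6 CD8 and 340 to 353 CPM in FlipFlop CD4. *S100a4* of that list went the opposite way, with 2.04 to 3.60 CPM in B6 CD8 and 5.17 to 8.87 CPM in FlipFlop CD4. Of these 5 markers, 1 was called higher and 1 lower in the cytotoxic lineage. In the helper lineage, B cell markers summed to 54.3 to 71.3 CPM in B6 CD4 and 41.7 to 44.9 CPM in FlipFlop CD8, and NK cell markers, with 2 of 4 listed and *Ncr1* and *Klri2* not, to 4.43 to 5.74 and 11.3 to 12.8 CPM, and neither overlapped, while myeloid markers, of which 4 of 10 are not listed, summed to 86.8 to 99.9 and 72.5 to 88.5 CPM. The 2 listed NK cell markers went opposite ways there, *Klrb1c* by 1.51 and *Fcgr3* by -0.32 on the log2 scale. In the cytotoxic lineage, the myeloid sums of 78.2 to 87.1 CPM for B6 CD8 and 54.1 to 70.0 CPM for FlipFlop CD4 did not overlap, while B cell sums were 53.0 to 75.2 and 38.5 to 61.2 CPM and NK cell sums 2.66 to 4.17 and 2.79 to 3.59 CPM. Most of the myeloid sum was *Cst3*, with 65.5 to 69.7 CPM in B6 CD8 and 47.8 to 61.2 CPM in FlipFlop CD4. Stromal and endothelial markers, 3 of 6 listed and without *Cdh5*, *Kdr* and *Col1a1*, summed to 113 to 121 CPM in B6 CD8, below the 155 to 166 CPM of FlipFlop CD4, and to 161 to 186 and 162 to 175 CPM in the helper lineage. Nearly all of this sum was *Pecam1*, with 112 to 121 CPM in B6 CD8 and 154 to 165 CPM in FlipFlop CD4. The part of these cells in the members' differences was not tested, and fewer cells of a type and less RNA per cell cannot be told apart in bulk samples.

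The strain differences of the lineages are set side by side here as a description, since both chose the genes. That of *Arsb* was smaller in the helper lineage by 1.63 on the log2 scale (standard error 0.27), at -1.87 against -3.50, and that of *F2rl2* by 1.20 (standard error 0.39), at -0.83 against -2.02. For *Rsl1*, *Zfp456*, *F2rl1*, *Zfp429* and *Gm20075* the helper minus cytotoxic value was 0.15, -0.15, 0.21, -0.27 and 0.37, with standard errors of 0.20, 0.32, 0.25, 1.14 and 0.87. In limma, 1 member (*Arsb*) was past an adjusted p of 0.05 for this difference, and 2 (*Arsb* and *F2rl2*) with the replicate block or without B6 CD8 replicate 1, beside 5.49% of all tested genes, 3.78% in this direction and 1.71% in the other, and nothing is read from these counts.

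**Figure D4:**
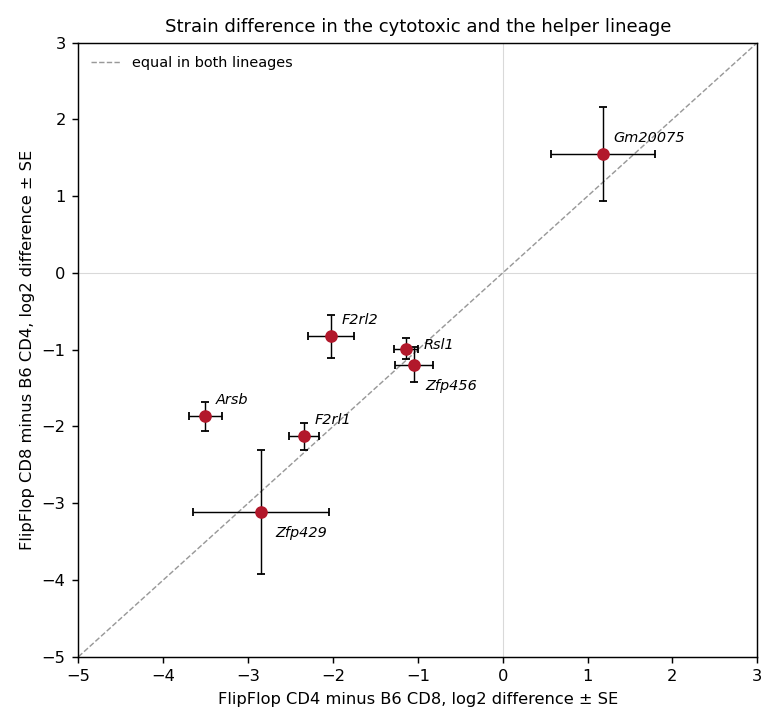
Strain difference (log2) in the cytotoxic lineage (horizontal axis) and in the helper lineage (vertical axis) for the 7 genes, with bars of 1 standard error and a dashed line where both are equal. *Arsb* lies above the line, at -3.50 and -1.87, and *Zfp429* and *Gm20075* have the widest bars.

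Between CD4 and CD8 T cells of B6 mice, *F2rl1* was the 1 member called, where 25.4% of all tested genes were, 14.6% higher and 10.8% lower in CD4. It was lower in B6 CD4 by 0.65 on the log2 scale (standard error 0.17, limma adjusted p = 0.0152), with each of the 3 CD4 libraries below each of the 3 CD8 libraries. The call was lost without B6 CD4 replicate 1 (limma adjusted p = 0.0523) and without B6 CD8 replicate 2 (limma adjusted p = 0.0548). *F2rl2* differed in the same direction by -0.79 (standard error 0.27, limma adjusted p = 0.0531). *F2r*, the third receptor gene of the run, was lower in B6 CD4 by 1.65 (standard error 0.17, limma adjusted p = 1.38e-05). The other 5 members had differences of -0.23 to 0.22.

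Between CD4 and CD8 T cells of FlipFlop mice, *Arsb* was the 1 member called, where 31.3% of all tested genes were, 15.3% higher and 16.0% lower in CD4. It was lower in FlipFlop CD4 by 1.86 (standard error 0.19, limma adjusted p = 1.14e-05) and stayed called in each of 21 alternatives (limma adjusted p from 5.84e-06 to 0.000192). The low FlipFlop CD4 values of *Arsb* also entered the strain difference that chose it, so these p-values are not independent of the choice. *F2rl1* was higher in FlipFlop CD4 by 0.44 (standard error 0.17, limma adjusted p = 0.0770). With the replicate number as a block, which pairs the FlipFlop libraries, it was called too (limma adjusted p = 0.00842), which made 2 members, and without replicate 2 of both groups its adjusted p was 0.0487. *F2r* was higher in FlipFlop CD4 by 0.80 (standard error 0.17, limma adjusted p = 0.00331). The regulatory T cell markers summed to 63.4 to 67.1 CPM in FlipFlop CD4 and 809 to 966 CPM in FlipFlop CD8, and their part in these differences was not tested.

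The difference between CD4 and CD8 T cells was itself compared between the strains. This is also the test of helper against cytotoxic lineage over both strains, in which 39.3% of all tested genes were called, 19.9% higher and 19.4% lower in the helper lineage. *Arsb* had a CD4 minus CD8 difference that was higher in B6 than in FlipFlop T cells by 2.08 (standard error 0.27, limma adjusted p = 5.31e-05). For *F2rl1* it was lower in B6 by 1.09 (a difference of -1.09, standard error 0.25, limma adjusted p = 0.00367). Both were called in each of 20 alternatives, with adjusted p from 2.39e-05 to 0.000267 for *Arsb* and from 0.000303 to 0.0191 for *F2rl1*. *F2rl1* had 57.4 ± 9.22 CPM in CD4 and 89.7 ± 2.94 CPM in CD8 of B6, and 17.5 ± 3.52 CPM in CD4 and 12.9 ± 3.19 CPM in CD8 of FlipFlop (SD, n = 3). *Arsb* overlapped between the lineages in B6, with 79.6 ± 16.0 CPM in CD4 and 67.7 ± 10.3 CPM in CD8 (SD, n = 3), and was lower in the cytotoxic lineage of FlipFlop, with 5.51 ± 0.849 CPM in CD4 and 21.5 ± 5.57 CPM in CD8 (SD, n = 3). The zinc finger genes and *Gm20075* did not pass, with differences between the strains of -0.31 for *Rsl1*, -0.18 for *Zfp456*, -0.08 for *Zfp429* and 0.28 for *Gm20075*, nor did *F2rl2*, with -0.39 (standard error 0.39, limma adjusted p = 0.473). With the replicate block, *Rsl1* passed as well (limma adjusted p = 0.0433).

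**Figure D5:**
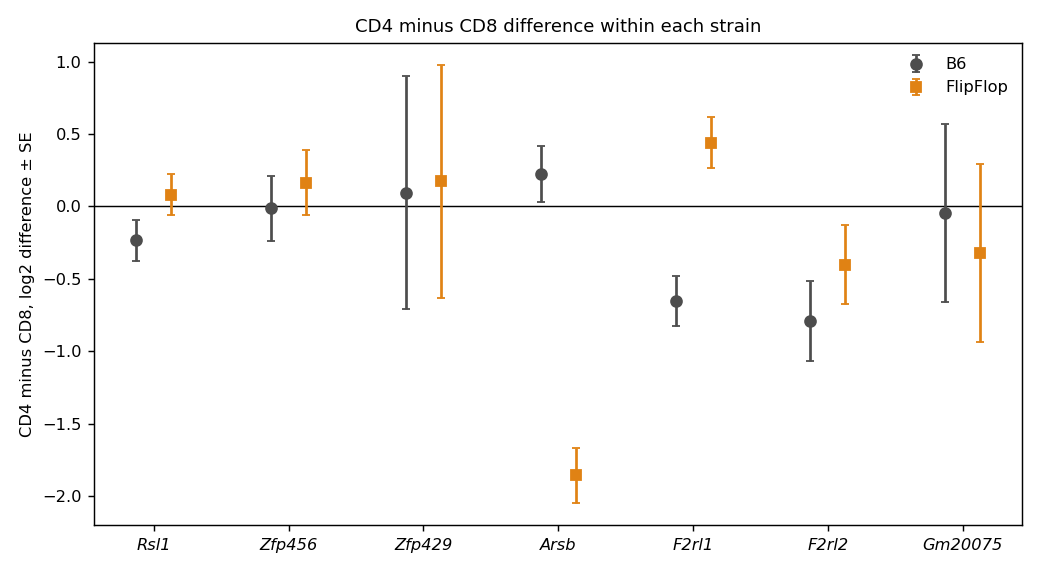
CD4 minus CD8 difference (log2, vertical axis) of each gene in B6 (gray circles) and FlipFlop (orange squares), with bars of 1 standard error. *Arsb* is at 0.22 in B6 and -1.86 in FlipFlop and *F2rl1* at -0.65 and 0.44, while the 2 strains lie close together at *Zfp456* and *Zfp429*.

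In order of level, B6 CD8 and B6 CD4 were the upper groups for 6 members and did not overlap with the FlipFlop group below them, narrowly so for *F2rl2*. *Rsl1*, *Zfp456*, *F2rl1* and *F2rl2* were highest in B6 CD8 and *Zfp429* and *Arsb* in B6 CD4, but these neighbors overlapped for all but *F2rl1*. Among the FlipFlop groups, CD4 was above CD8 for the zinc finger genes and *F2rl1*, with overlap, and CD8 above CD4 for *Arsb* and *F2rl2*, without overlap. All groups of *Gm20075* overlapped with the next.

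The zinc finger, receptor and lysosomal genes that belong with the members were counted in the same strain contrasts. At a limma adjusted p under 0.05, 4.17% of all tested genes were higher and 3.75% lower in the cytotoxic and 13.2% and 14.4% in the helper lineage. Of 21 tested zinc finger genes on chromosome 13 within 3 Mb of a member, members left out, 1 was higher and 2 were lower in the cytotoxic lineage, and 1 was higher and 3 were lower in the helper lineage, at this limit. Their median difference was -0.14 and 0.05, beside -0.00067 and -0.0079 over all tested genes. *Zfp369* was higher by 0.61 and 0.75, and *Zfp493* and *Zfp874a* were lower. *Zfp58* was called lower only in the helper lineage, with -0.36 and -0.37. Of 20 genes for the corepressors that KRAB proteins use, 0 were higher and 1 was lower in the cytotoxic lineage, and 2 and 1 in the helper lineage. At an unadjusted p under 0.05, 2 were higher and 2 lower in the cytotoxic and 6 and 3 in the helper lineage. The share of all genes at this unadjusted limit was not counted, so nothing is read from it, here or for the lists below. *Trim28* itself had 210 to 271 CPM in all libraries and differences of -0.04 and -0.18. *Hdac1*, a histone deacetylase gene, was lower by 0.34 (limma adjusted p = 0.00546) and 0.30, and *Uhrf1*, which maintains DNA methylation, and *Atrx*, a chromatin remodeler gene, were higher in the helper lineage by 1.25 and 0.66. Of 8 liver genes known as targets of RSL1, 1 is listed, *C4b* with 0.0376 to 0.712 CPM, and it was under the filter.

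Of 17 tested genes of protease-activated receptor signaling other than the members, 1 was higher and 1 lower in the cytotoxic lineage and 5 were higher and 0 lower in the helper lineage, where 6 and 5 had an unadjusted p under 0.05. Of all tested genes, 4.17% were called higher and 3.75% lower in the cytotoxic and 13.2% and 14.4% in the helper lineage. *Arrb1*, which encodes an arrestin that binds such receptors, was higher by 0.45 (limma adjusted p = 0.0161) and 0.36, *Tfpi*, an inhibitor of coagulation proteases, was lower by 0.50 in the cytotoxic lineage (limma adjusted p = 0.0320), and *Gnaq*, a G protein gene, was higher by 0.82 in the helper lineage. *Plcb3*, a phospholipase gene, and *St14*, the gene of the protease matriptase, were higher there by 0.71 and 0.75, and *F2r* was the other gene called. *F2rl3*, the PAR4 gene on another chromosome, differed by -0.35 and -0.28 and was not called. Of 19 tested genes of lysosomal glycosaminoglycan degradation, the pathway of *Arsb*, 0 were higher and 1 lower in the cytotoxic and 0 higher and 2 lower in the helper lineage, and at an unadjusted p under 0.05 0 were higher and 2 and 5 lower. *Idua*, which encodes the iduronidase that acts on dermatan sulfate as well, was lower by 0.71 (limma adjusted p = 0.0278) and 0.72 (limma adjusted p = 0.0123), with 28.0 to 32.7 CPM in B6 and 13.3 to 22.1 CPM in FlipFlop libraries, and *Hexa*, a hexosaminidase gene, was lower in the helper lineage by 0.32. *Arsk*, a sulfatase gene and next in size in the cytotoxic lineage, differed by -0.36 and was not called.

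Correlations over the 12 libraries, which share the strain difference and are given as descriptions, placed other genes beside the members. *Rsl1* and *F2rl1*, from different runs, had r = 0.981, *Zfp456* and *Zfp429* 0.966 and *Rsl1* and *Zfp456* 0.955, whereas *Arsb* and the zinc finger genes had 0.723 to 0.820. Of all other tested genes, *Glyctk* on chromosome 9 was most like *Rsl1* (r = 0.978) and *Zfp456* (r = 0.980), *Rpl29* on chromosome 9 most like *Zfp429* (r = 0.995), *Zbtb8a* most like *F2rl1* (r = 0.980), *1700025G04Rik* most like *Arsb* (r = 0.953), *Gm37844* most like *F2rl2* (r = 0.922) and *Elavl4* most like *Gm20075* (r = 0.937). Next in order were *Fam169b* and *Eps8l1* for *Rsl1*, *Rpl29* and *Abhd14b* for *Zfp456*, *Gm6344* and *Abhd14b* for *Zfp429*, *Enc1* and *Paqr4* for *Arsb*, *Glyctk* and *Fam169b* for *F2rl1*, *Tnfaip8* and *Zfp52* for *F2rl2* and *BC002163* and *Gng10* for *Gm20075*, with r from 0.918 to 0.985. Levels are given for *Rpl29* and for those on chromosome 13, a choice made after the values were seen. *Rpl29*, a ribosomal protein gene, had the split of *Zfp429*, with 60.3, 591 and 54.5 CPM in FlipFlop CD4 and 48.5, 441 and 42.3 CPM in FlipFlop CD8, against 986 to 1309 CPM in B6 libraries. *Gm6344*, on chromosome 13 before both runs, was next for *Zfp429* (r = 0.985), with 0.0781, 1.23 and 0 CPM in FlipFlop CD4, 0, 1.25 and 0 CPM in FlipFlop CD8 and 2.10 to 3.87 CPM in B6 libraries. *Enc1*, on chromosome 13 past the second run, was second for *Arsb* (r = 0.950), with 27.6 to 35.5 CPM in FlipFlop CD4, 39.7 to 46.4 CPM in FlipFlop CD8 and 61.7 to 74.6 CPM in B6 libraries.

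The members differ in how much of their sequence is their own. For *F2rl1* and *F2rl2*, none of the windows of 1 read length is found in a transcript of another gene, and for *Rsl1* and *Zfp429* 5.17% and 2.81% are. For *Zfp456* 55.5% are shared, first with *Gm17039*, annotated as antisense, and *Gm28041*, a gene on the same strand that overlaps it, and for *Arsb* 34.6% are shared with transcripts annotated on the other strand. The values of *Arsb*, *F2rl1* and *F2rl2* are whole numbers of reads in 12 of 12 libraries, within 0.02 of a read, while those of *Rsl1*, *Zfp456* and *Zfp429* are whole in 0 of 12. *Gm20075* is whole in 1 of 12.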

How the data were processed

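The 12 libraries were made from total RNA of sorted lymph node T cells with a low-input kit and sequenced in pairs. The methods name STAR, and the submitters' processing notes Trimmomatic, TopHat and mm10; which aligner made the table, the counting program and the annotation are not given in the sources used here. The authors deposited 1 table of signal values, CPM scaled by TMM factors, of 12809 genes; 0 of its sample columns were left unmapped. Whole reads came out for 82.6% to 84.2% of values under 20 CPM (within 0.02 of a read), so no count test was run. The rest was computed here. The 11595 genes that reached 1 CPM in 3 or more libraries (1214 did not) were fitted as log2(CPM + 0.5) in R 4.3.3 by limma 3.58.1, using lmFit and then eBayes with its trend option, with 4 group means, 8 residual degrees of freedom and Benjamini-Hochberg adjustment over all 11595 genes. A call is an adjusted p under 0.05. Groups came from the labels. All identifiers were matched to GENCODE M21 (GRCm38). Tables and sequences were handled in Python 3.11.15 with pandas 2.3.3 and biopython 1.88.

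The members and lists were chosen with earlier results of these data known. Named genes are the members, non-members of the runs and their 1 Mb flanks with a strain difference over 1 on the log2 scale in either lineage, the nearest tested genes outside each run, called and largest genes of each list, and the 3 genes most like each member. Other genes named are said to be chosen after their values were seen or are needed to read a member's value. Same-numbered FlipFlop libraries deviated together (r = 0.44, 0.27 and 0.51), so the numbers pair them. Alternatives changed the pseudocount, filter, scaling, thresholds, block and libraries. On simulated data for FlipFlop CD4 against B6 CD8, 199 of 200 genes changed by 2 on the log2 scale and 14 others were called among 11595.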

Additional observations from a re-analysis of the deposited data

Results flagged for a closer look

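Differences between groups are listed here with their values. The strain difference of *Arsb* (FlipFlop minus B6) was apart between the lineages by 1.63 on the log2 scale, -1.87 in the helper against -3.50 in the cytotoxic lineage; both values chose the gene, so this is a description. The next 2 passed the limma test of the difference itself. The CD4 minus CD8 difference of *Arsb* differed between the strains by 2.08, being 0.22 in B6 and -1.86 in FlipFlop. That of *F2rl1* differed by -1.09, being -0.65 in B6 and 0.44 in FlipFlop, and neither its B6 nor its FlipFlop value alone was called in every alternative.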

How the results depend on the processing

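No strain difference of a member, and none of the called differences of *Arsb* and *F2rl1*, changed sign under an alternative. Differences between CD4 and CD8 T cells that were not called changed sign under some for *Rsl1*, *Zfp456*, *Zfp429* and *Gm20075*, as for *Zfp429* in FlipFlop, 0.17 with all libraries and -0.76 without FlipFlop CD4 replicate 2. Under the alternatives, counts stayed within 1.5 times of the reported one 145 times and moved further 35 times. Members' strain differences, judged by size alone, and called values together stayed within their spread or on their side of the threshold 387 times; 3 strain differences of *F2rl2* moved by more than the spread between replicates and *F2rl1* lost its call in B6 2 times; where one moved, the cause was not tested. With an unadjusted p under 0.0001 and more than 5-fold, members differing between the strains numbered 2 in the cytotoxic and 0 in the helper lineage, and with an unadjusted p under 0.05 and more than 5-fold 3 and 1; under both limits 0 were left for CD4 against CD8 in B6, in FlipFlop, the lineage effect and the coreceptor effect. For CD4 against CD8 in B6, *F2rl2* joined *F2rl1* with pseudocount 1 and with all genes of the table (2 members each), and leaving out 1 library gave 0 to 2, with 0 without B6 CD4 replicate 1 or B6 CD8 replicate 2 and 2 without B6 CD4 replicate 3, B6 CD8 replicate 1 or FlipFlop CD8 replicate 1. In FlipFlop, leaving out 1 library gave 1 to 2, and leaving out replicate 2 of both FlipFlop groups, chosen after seeing the data, 2. The difference of the strain difference between lineages (the coreceptor effect) gave 1 to 2 when 1 library was left out. With the replicate block, 3 members were called in B6, 2 in FlipFlop and 2 (*Arsb* and *F2rl2*) for the coreceptor effect. Same-numbered B6 libraries correlated by 0.18, 0.089 and 0.35 and differently numbered ones by -0.35 to 0.16, so whether the numbers pair the B6 libraries is not settled. Zinc finger neighbors called numbered 2 to 6 in the cytotoxic and 2 to 5 in the helper lineage when 1 library was left out, 5 and 7 with the replicate block, 0 and 0 with the 5-fold limit at 0.0001, and 2 in the helper lineage with a fit of 6 libraries. Without the TMM factor the median of all genes moved by 0.16 for the helper strain difference, -0.17 for CD4 minus CD8 in FlipFlop and 0.12 for the lineage effect. Depth limits *F2rl2*, whose lowest library held 2 reads.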
